A study of Bos taurus with 35 samples.

Results

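The genes described here are 8 of the mRNAs that the bovine mitochondrial genome itself encodes: ND1, ND2, ND3, ND4, ND4L, ND5 and ND6, which are subunits of respiratory complex I, and CYTB, the cytochrome b subunit of complex III. They were followed in 35 samples of *longissimus thoracis* muscle, the large muscle along the back, taken from 7 beef heifers over the first 72 h *post-mortem*. The members were the genes with these symbols in the study's list of differentially expressed (DE) genes. They are 8 of the 27607 genes in the count table and of the 14630 genes that passed the filter on low counts, which all 8 did. That list was drawn from the 4 comparisons of a later time point with 0 h in these same samples. For this reason differences from 0 h are given below as a description, with no p-value, and counts of members called against 0 h show only how they came to be listed. For the members, tests are reported only for comparisons among 24, 48 and 72 h. For other genes named through the same list, counts of calls and of unadjusted p-values against 0 h are likewise only a description.

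The mitochondrial genome is a small circle of DNA present in many copies per cell. Its 13 mRNA genes code for core subunits of the respiratory chain, and it also holds 2 rRNA and 22 tRNA genes. Complex I takes electrons from NADH and pumps protons across the inner membrane, and the ND subunits form part of its membrane arm. Complex III passes the electrons on from ubiquinol to cytochrome c, with cytochrome b as its membrane core. Both strands of the circle are transcribed into long precursors, which are cut mostly at the tRNAs that stand between the mRNA genes. Of the mRNA genes, ND6 is the only one read from the light-strand promoter, and the other 7 genes described here are named the heavy-strand genes below. In the RefSeq gene order of the assembly ARS-UCD2.0, ND1 and ND2 come first, ND3, ND4L, ND4 and ND5 follow as neighbours, and ND6 lies on the opposite strand between ND5 and CYTB. The other 5 mRNA genes (COX1, COX2, COX3, ATP6 and ATP8) were not analysed here, since no source paired their symbols with the identifiers of the table.

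The animals were crossbred (British × Continental) finished heifers of 525 to 635 kg at slaughter. Cores were taken from the refrigerated left carcass side of every animal at 0 h (45 min after death), 6, 24, 48 and 72 h, so that each of the 5 time points is represented by the same 7 animals and 1 library per animal. Stranded mRNA libraries were sequenced. Total counts per sample ranged from 20568418 to 104275821. Levels are given as CPM, counts scaled to a common library size with TMM normalization, as mean ± SD between animals (n = 7). Differences are log2 fold changes fitted by edgeR with animal as a block, ± a standard error derived from the test statistic. A gene was called at a false discovery rate (FDR) below 0.05 and a fold change above 1.5. As these are bulk samples, fewer cells of a type and less RNA per cell cannot be told apart, and a CPM is a share of the library, not an amount of RNA.

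All 8 mRNAs were lower at 6 h than at 0 h in each of the 7 animals, and again at 24 h. Their combined share of a library's counts was 3.62% ± 0.45 in the 0 h samples and 2.04% ± 0.42 in those of 6 h. After 24, 48 and 72 h it was 2.15% ± 0.37, 2.52% ± 0.73 and 2.86% ± 0.64. The share was lowest at 6 h and higher on average at each later time point. Animal 206 held 4.06% at 48 h, with the next animal at 2.68%. The 2 mitochondrial rRNA genes took 0.467% ± 0.062 at 0 h, 0.415% ± 0.094 at 6 h and 0.744% ± 0.23 of counts at 72 h, so that their mean share at 72 h was above that at 0 h. The 5 named mitochondrial tRNA genes together took 0.00102% ± 0.00043 at 0 h, 0.00052% ± 0.00025 at 6 h and 0.00065% ± 0.00023 at 72 h, below the 0 h share in 7 of 7 animals at both. Of these genes, ENSBTAG00000043579 went the other way, with fitted log2 fold changes from 0 h of 0.66 ± 0.41 at 6 h and 1.05 ± 0.39 at 72 h.

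Against 0 h, 8 members were called lower at 6 h, where 0.185% of all genes tested were called lower. At 24 h 7 members were called lower, against 0.95% of all genes, and ND3 was the exception. At 48 h the number was 4 (ND1, ND2, ND5 and ND6), against 6.3% of all genes, and at 72 h ND6 alone was called, against 15.4%. At the FDR alone 8 were lower at 48 h, against 23.5% of all genes, and 4 at 72 h, against 33.2%. These counts describe how the genes were chosen. The fold threshold lies at 0.585 on the log2 scale, and ND3 lay just inside it at 6 h (-0.629 ± 0.11) and just outside at 24 h (-0.579 ± 0.11). The median log2 fold change of the 8 members was -0.89, -0.80, -0.52 and -0.18 for the 6, 24, 48 and 72 h samples, while the median of all genes lay between -0.0048 and 0.014. The 4 comparisons share the 0 h samples, so the values at the 4 later time points are not independent of each other.

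**Figure D1:**
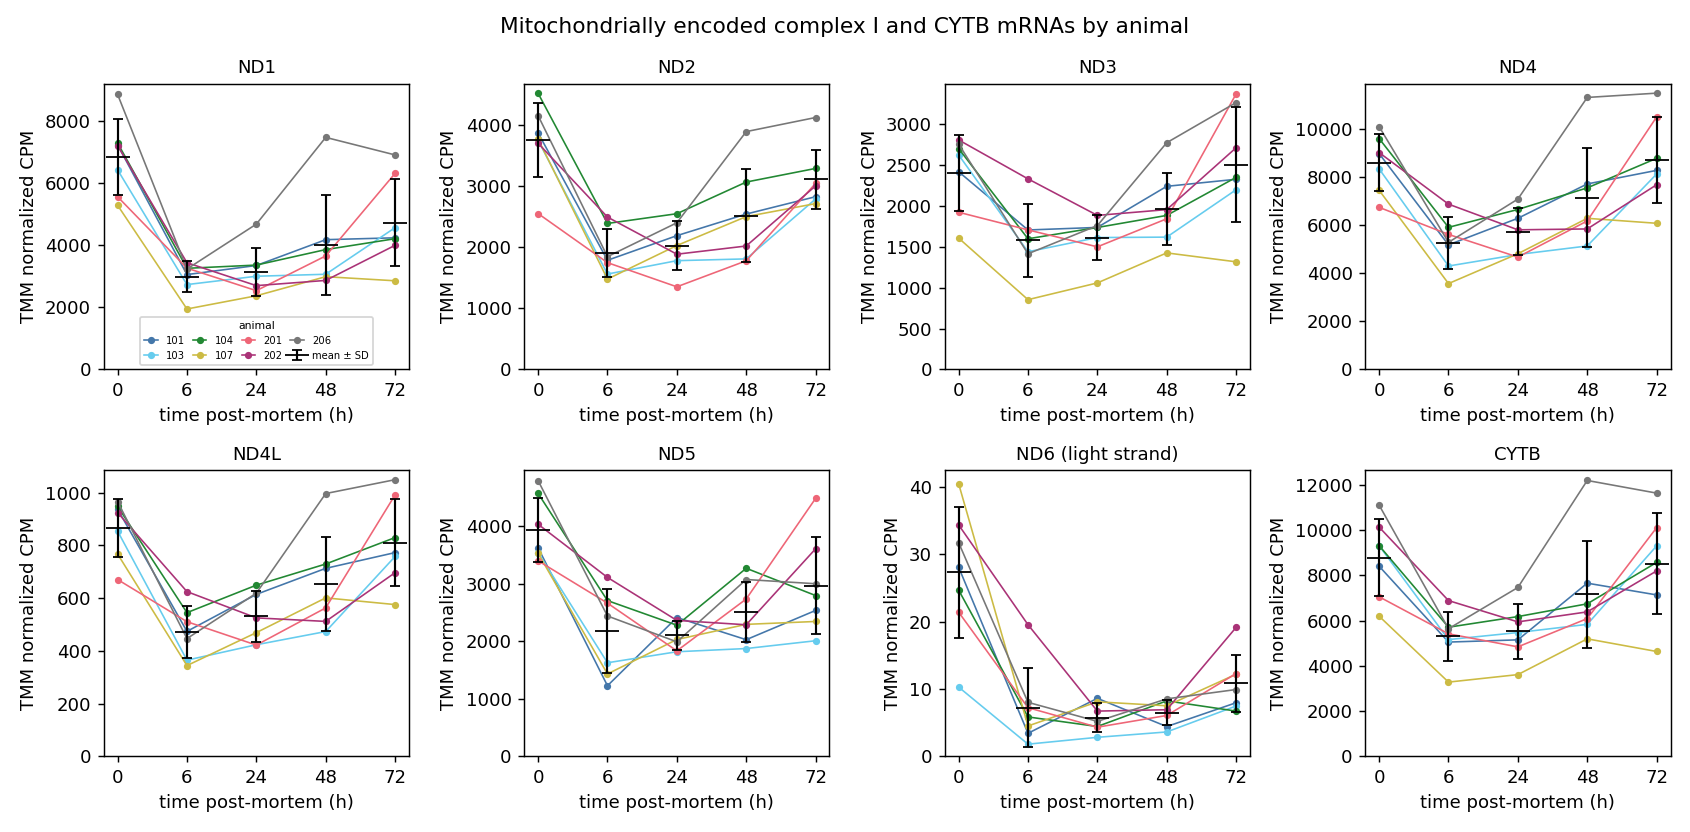
TMM normalized CPM (vertical axes, from 0) of the 8 mRNAs at 0, 6, 24, 48 and 72 h *post-mortem* (horizontal axes, time points evenly spaced); each coloured line is 1 of the 7 animals, and black bars are mean ± SD. The mean of every gene is lower at 6 h than at 0 h, the heavy-strand genes are higher again at 72 h than at 24 h, and ND6 stays below its 0 h mean of 27.3 CPM, with 10.8 CPM at 72 h.

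ND1 (ENSBTAG00000043558), a subunit at the joint between the membrane arm and the peripheral arm of complex I, showed the largest early difference of the heavy-strand genes. At 0 h its level was 5288 CPM in the lowest animal, 7209 in the median animal and 8858 in the highest. At 6 h the lowest, median and highest values were 1948, 3234 and 3437 CPM. The 2 time points did not overlap, and every animal was at 36.5% to 58.7% of its own 0 h level. At 24 h the values were 2373, 3002 and 4680 CPM, still below every 0 h sample. The values at 48 h (2867, 3656 and 7473 CPM) and at 72 h (2856, 4240 and 6908 CPM) overlapped those at 0 h. At 6, 24, 48 and 72 h its fitted log2 fold changes from 0 h were -1.19 ± 0.12, -1.14 ± 0.12, -0.82 ± 0.12 and -0.56 ± 0.12, and at 72 h 6 of 7 animals were below their own 0 h level.

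ND2 (ENSBTAG00000043571), a proton-pumping subunit of the membrane arm, lay between 2548 and 4513 CPM in the 0 h samples (median 3764) and between 1477 and 2490 in those of 6 h (median 1784). The groups did not overlap at 6 h, nor at 24 h (1351 to 2545 CPM, median 2025). At 48 h ND2 lay between 1776 and 3887 CPM (median 2498) and at 72 h between 2711 and 4117 (median 3001), both within reach of the 0 h samples. In the fit the log2 fold changes of ND2 at the 4 later time points were -0.98 ± 0.11, -0.90 ± 0.11, -0.60 ± 0.11 and -0.26 ± 0.11. The lowest 0 h value of ND2 came from animal 201, and the next animal stood at 3700 CPM.

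ND3, ND4L and ND4 are neighbours in the circle and code for small and large parts of the membrane arm. ND3 (ENSBTAG00000043568) had the smallest early difference of the 8 genes. It lay between 1604 and 2801 CPM in the 0 h samples (median 2619) and between 852 and 2326 in those of 6 h (median 1595), so that the groups overlapped, although each animal was lower at 6 h, at 51.3% to 88.8% of its own 0 h level. Its lowest, median and highest levels were 1056, 1733 and 1880.4 CPM after 24 h and 1423, 1880.1 and 2767 after 48 h, where the fitted value was -0.29 ± 0.11 on the log2 scale. At 72 h ND3 ranged from 1314 to 3363 CPM (median 2345), and the log2 fold change of 0.04 ± 0.11 left no difference from 0 h beyond its error.

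ND4 (ENSBTAG00000043577), another proton-pumping subunit, had a lowest, median and highest level of 6729, 8961 and 10079.5 CPM in the 0 h samples. The same values were 3565, 5277 and 6861 CPM after 6 h and 4664, 5796 and 7072 after 24 h. They were 5126, 6274 and 11289.7 CPM after 48 h and 6067, 8263 and 11467.5 after 72 h. The samples of 0 h overlapped with those of every later time point. The 4 fitted log2 fold changes of ND4, in time order, were -0.72 ± 0.11, -0.60 ± 0.11, -0.29 ± 0.11 and 0.01 ± 0.11. The sign at 72 h turned for ND3 and ND4 without animal 201 (-0.11 for both), an animal whose 72 h sample was at 175% of its 0 h level for ND3 and at 156% for ND4.

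ND4L (ENSBTAG00000043559), a short subunit whose mRNA is joined to that of ND4 in mammals, had a lowest, median and highest level of 671, 925 and 967 CPM in the 0 h samples. The same values were 344, 474 and 625 CPM after 6 h and 422, 525 and 649 after 24 h. They were 473, 601 and 997 CPM after 48 h and 576, 773 and 1049.7 after 72 h. Its groups did not overlap with 0 h at 6 and 24 h. At 6, 24, 48 and 72 h its fitted log2 fold changes from 0 h were -0.88 ± 0.12, -0.72 ± 0.12, -0.43 ± 0.12 and -0.10 ± 0.12.

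ND5 (ENSBTAG00000043563), the proton-pumping subunit at the far end of the membrane arm, lay between 3395 and 4787 CPM in the 0 h samples (median 3621) and between 1224 and 3106 in those of 6 h (median 2436). It stayed below every 0 h sample at 24 h (1815 to 2409 CPM, median 2028) and at 48 h (1871 to 3265 CPM, median 2290), and overlapped with 0 h at 72 h (2006 to 4478 CPM, median 2791). In the fit the log2 fold changes of ND5 at the 4 later time points were -0.90 ± 0.14, -0.89 ± 0.14, -0.66 ± 0.14 and -0.43 ± 0.14. Among the heavy-strand genes, only ND1 had a lower fitted value at 72 h. At 6 h animal 101 was at 33.8% of its 0 h level and animal 201 at 78.3%, and at 72 h the animals were at 56.7% to 132% of theirs.

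CYTB (ENSBTAG00000043550), the member that belongs to complex III, had a lowest, median and highest level of 6198, 9319 and 11112.8 CPM in the 0 h samples. The same values were 3281, 5417 and 6888 CPM after 6 h and 3612, 5474 and 7468 after 24 h. They were 5195, 6388 and 12203.7 CPM after 48 h and 4636, 8576 and 11644.4 after 72 h. As for ND4, each later time point overlapped with 0 h. The 4 fitted log2 fold changes of CYTB, in time order, were -0.73 ± 0.10, -0.68 ± 0.10, -0.31 ± 0.10 and -0.06 ± 0.10.

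**Figure D2:**
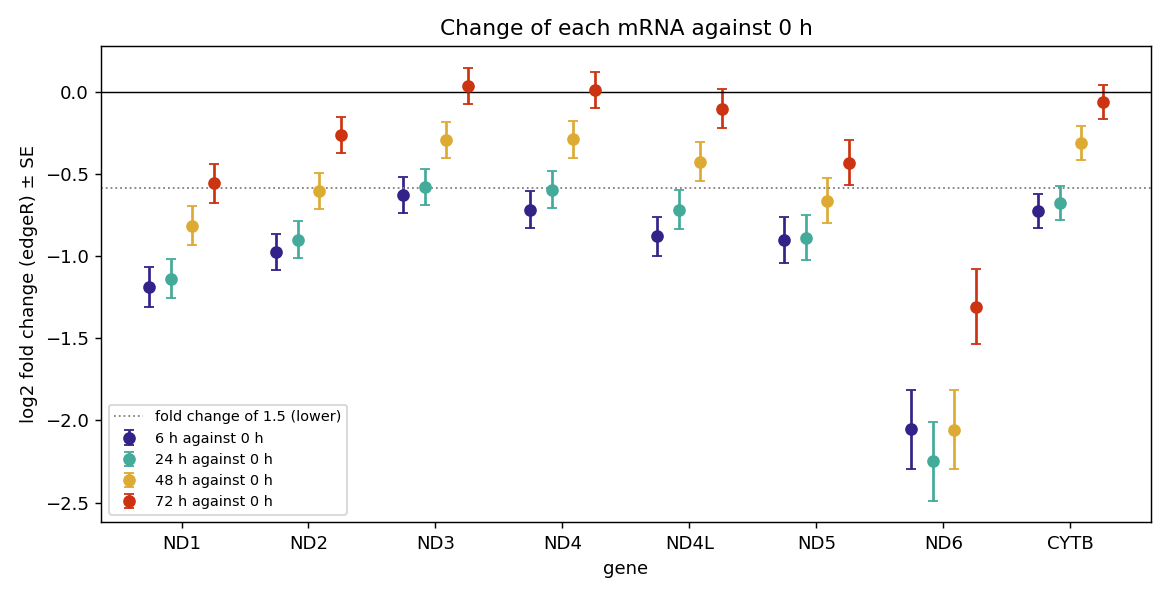
Fitted log2 fold change against 0 h (vertical axis) of the 8 mRNAs (horizontal axis); colours are the 6, 24, 48 and 72 h time points, bars are ± 1 standard error, and the dotted line marks a fold change of 1.5 in the lower direction. ND6 lies lowest at every time point (-2.06 at 6 h, -1.31 at 72 h), ND1 is the lowest heavy-strand gene, and ND3, ND4 and CYTB end near 0.

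ND6 (ENSBTAG00000043546), a membrane arm subunit and the light-strand gene of the set, had by far the largest fold difference of the 8 members and the fewest reads. At 0 h its level was 28.1 CPM in animal 101, 10.3 in 103, 24.7 in 104, 40.5 in 107, 21.4 in 201, 34.4 in 202 and 31.8 in 206. At 6 h the same animals had 3.41, 1.80, 5.84, 4.50, 7.22, 19.6 and 8.02 CPM. Animal 103 was the lowest and animal 202 the highest at 6 h, and the value of animal 202 lay above the 0 h value of animal 103, so that the groups overlapped through these 2 animals. At 24 h ND6 ranged from 2.81 to 8.61 CPM (median 5.19) and at 48 h from 3.61 to 8.53 (median 6.92), below every 0 h sample at both. At 72 h the animals had, in the same order, 7.96, 7.47, 6.71, 12.2, 12.3, 19.2 and 9.92 CPM. Each animal was still below its own 0 h level, by the least in animal 103, which stood at 72.6% of it. At 6, 24, 48 and 72 h its fitted log2 fold changes from 0 h were -2.06 ± 0.24, -2.25 ± 0.24, -2.06 ± 0.24 and -1.31 ± 0.23. These values rest on 101 to 2341 reads per library, against at least 8868 for any other member, and counting alone gives an error of 9.95% at the lowest count. By fold change ND6 was the second lowest of the 14630 genes tested at 6 h. A large early difference was not particular to ND6. The mitochondrial tRNA gene ENSBTAG00000043575 was at -1.86 ± 0.29 at 6 h and -2.44 ± 0.30 at 24 h. ENSBTAG00000043574 (-1.64 ± 0.25) and ENSBTAG00000043544 (-1.60 ± 0.27) were also well below 0 at 6 h. ENSBTAG00000043572 was at -0.73 ± 0.17 and ENSBTAG00000043579 at 0.66 ± 0.41 at 6 h. These are the 5 of 22 mitochondrial tRNA genes named in the study's list, so their differences from 0 h are also a description. They rest on few reads, together 0.00102% of counts at 0 h. Whether those reads came from tRNAs or from uncut precursors was not tested.

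The number of members whose samples did not overlap with 0 h, all of them lower, was 4 at 6 h (ND1, ND2, ND4L and ND5), 5 at 24 h (the same genes and ND6), 2 at 48 h (ND5 and ND6) and 0 at 72 h. The share of all genes that were lower without overlap was 0.0957%, 0.396%, 3.34% and 10.1% in the same comparisons.

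To set ND6 against the heavy-strand genes, the median change of the 7 heavy-strand genes was subtracted from the change of ND6 within each animal, on the log2 CPM scale. Its mean over the 7 animals was -1.31 ± 0.61 (SD), -1.504 ± 0.38, -1.58 ± 0.57 and -1.19 ± 0.59 for the 6, 24, 48 and 72 h samples, and it was below 0 in 7 of 7 animals at each time point. ND6 had the lowest change of all 8 members in 6, 7, 7 and 5 animals at these time points. The difference was smallest in animal 202 at 6 h (-0.26) and in animal 103 at 72 h (-0.20). The scaling of a library cancels in this difference, apart from the prior count. No p is given for it, because the genes had been chosen on the same comparisons. From 48 to 72 h the difference rose in 6 of 7 animals (0.41 ± 0.49), that is, by less than its own spread.

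**Figure D3:**
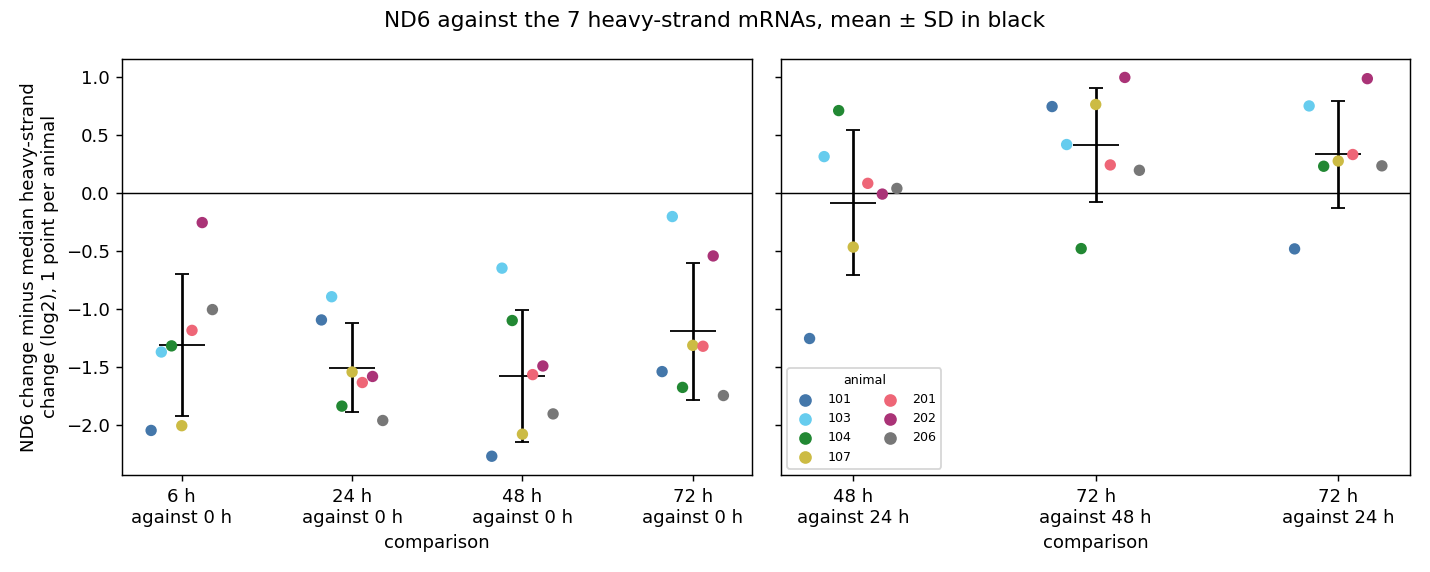
Change of ND6 minus the median change of the 7 heavy-strand genes within each animal, in log2 CPM (vertical axes), for each comparison (horizontal axes) with 0 h on the left and among 24, 48 and 72 h on the right; points are animals and black bars mean ± SD. All 7 animals lie below 0 in each comparison with 0 h, from -2.04 to -0.26 at 6 h, and on the right they lie on both sides of 0.

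Ratios of reads between members gave the same comparison without any normalization. ND6 gave 7.01 ± 2.68 reads per 1000 reads of ND5, its neighbour on the other strand, at 0 h. The ratio was 3.07 ± 1.601 after 6 h, 2.696 ± 0.86 after 24 h, 2.56 ± 0.49 after 48 h and 3.69 ± 1.15 after 72 h. It lay below the animal's own 0 h ratio in 7 of 7 animals at 6, 24 and 48 h and in 6 of 7 at 72 h. The methods describe strand-specific counting of the sense strand, and the deposited table is named for the reverse strand, a stranded setting, but the printed option of the counter is the unstranded one. If strand was not used, reads of ND6 and of antisense RNA from the heavy-strand precursor cannot be told apart. Copies of mitochondrial sequence in the nuclear genome can also share reads with these genes, and their part in the counts was not tested.

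The heavy-strand genes also differed from one another. ND1 gave 794 ± 53.2 reads per 1000 reads of ND4 at 0 h (711 to 879) and 575 ± 45.4 at 6 h (501 to 637). The ratios of the 2 time points did not overlap. The ratio then stayed near its 6 h value, with 548 ± 72.1 at 24 h, 554 ± 67.0 at 48 h and 536 ± 54.2 at 72 h (471 to 603), in each case below the 0 h ratio in 7 of 7 animals. ND1 against CYTB was likewise highest at 0 h, with 783 ± 64.5 reads per 1000 at 0 h and 568 ± 39.7, 572 ± 75.1, 554 ± 55.2 and 557 ± 63.6 at 6, 24, 48 and 72 h. Thus the ND1 level at 72 h was partway back to 0 h in CPM, while its ratio to ND4 and CYTB was not. ND4L gave 101 ± 3.05 reads per 1000 reads of ND4 at 0 h, 90.3 ± 4.22 at 6 h and 93.4 ± 1.59 at 72 h, again lower in 7 of 7 animals at every later time point. This is a small difference, and at 6 h the ratio ranged from 84.6 to 96.5 against 95.9 to 105 at 0 h.

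**Figure D4:**
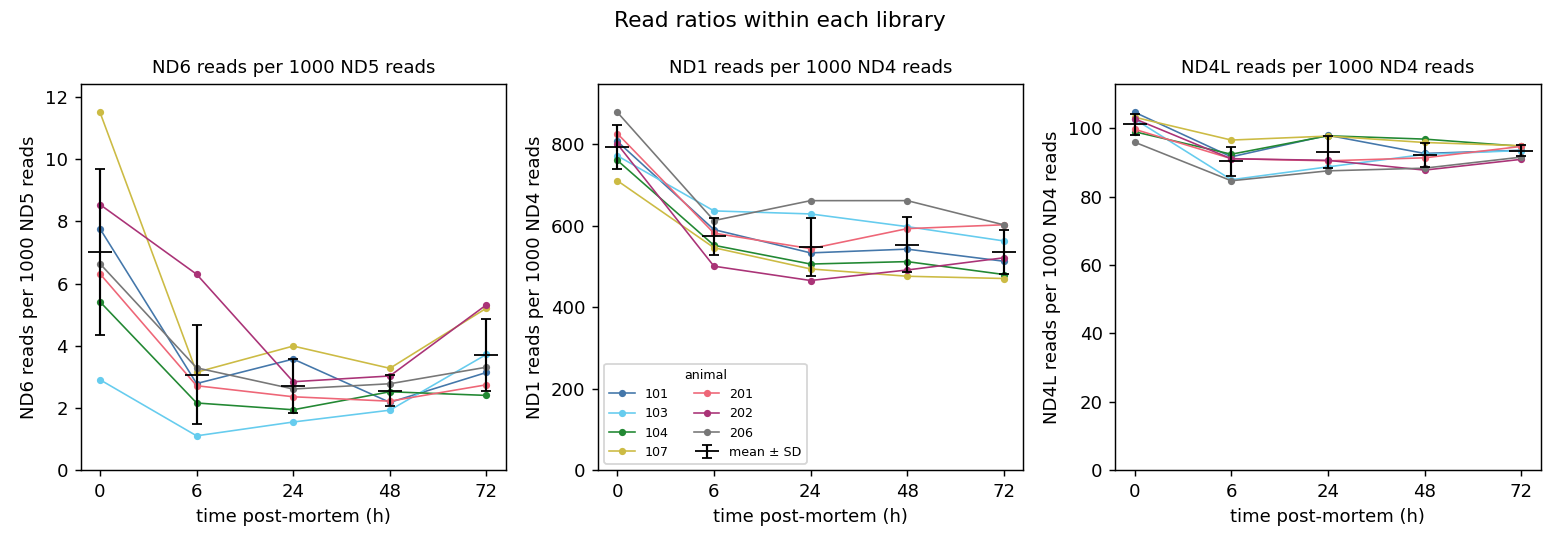
Reads of 1 member per 1000 reads of another (vertical axes, from 0) at each time point (horizontal axes); lines are the 7 animals and black bars mean ± SD. All 3 ratios are lower on average at each later time point than at 0 h, and ND1 per 1000 ND4 reads ranges from 711 to 879 at 0 h and from 501 to 637 at 6 h.

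As shares of the reads of all 8 members, ND1 went from 19.4% ± 0.95 at 0 h to 15.3% ± 1.05 at 6 h and 14.9% ± 1.29 at 72 h. ND4 made up 24.5% ± 0.88, 26.7% ± 0.999 and 27.9% ± 1.395 for these 3 time points. ND3 held 6.80% ± 0.64 at 0 h, 7.93% ± 1.03 at 6 h and 7.89% ± 0.88 at 72 h. ND5 held 11.2% ± 0.90, 10.9% ± 2.16 and 9.58% ± 2.14 at the same time points, and its SD at 6 h was wider than its difference from 0 h. ND6 was at 0.0794% ± 0.034 at 0 h, 0.0343% ± 0.021 at 6 h and 0.0363% ± 0.018 at 72 h. Levels of different genes are not ranked here, because gene lengths of the annotation used for counting were not at hand, and shares are compared only between time points.

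The later time points ask whether the mRNAs stayed at their low level. Levels at 0 and 6 h do not enter these differences, but those samples are part of the shared fit behind the errors and FDRs. The 24, 48 and 72 h samples had also each been compared with 0 h when the study's list was made. From 24 to 72 h, 6 of 8 members rose past both thresholds, where 4.43% of all genes tested were called higher. ND2 rose by a log2 fold change of 0.64 ± 0.11 (edgeR quasi-likelihood test, FDR = 1.66e-05), ND3 by 0.61 ± 0.11 (FDR = 2.69e-05), ND4 by 0.60 ± 0.11 (FDR = 3.38e-05), ND4L by 0.61 ± 0.12 (FDR = 6.06e-05), CYTB by 0.62 ± 0.10 (FDR = 1.07e-05) and ND6 by 0.94 ± 0.24 (FDR = 0.0015). Every heavy-strand gene was higher at 72 h in 7 of 7 animals and ND6 in 6 of 7, with animal 101 at 92.4% of its 24 h level. ND1 (0.58 ± 0.12, FDR = 0.00013) and ND5 (0.46 ± 0.14, FDR = 0.00548) passed the FDR but not the fold threshold. At the FDR alone all 8 were higher, against 29.8% of all genes, and the samples did not overlap for ND2 alone, against 3.21%.

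The fold changes from 24 to 72 h lay near the fold threshold, so that the number called moved with single animals and with the model. Without animal 201, whose heavy-strand genes rose most (to between 209% and 249% of their 24 h level), 1 member was called, ND6 (0.84, FDR = 0.0127), and the heavy-strand genes had log2 fold changes from 0.30 to 0.54, of which ND5 alone missed the FDR (0.0508). Without animal 103, 3 members were called. With RIN, the RNA integrity number of each sample, as a covariate, 2 members were called (ND2 and ND6). In a fit of the 14 samples of 24 and 72 h alone, ND3 (0.582) and ND4 (0.578) fell below the fold threshold and lost their call. In all of these fits the 8 genes kept their direction.

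The rise was split over both days. From 24 to 48 h 0 members were called by edgeR, DESeq2 or limma voom, where 0.376% of all genes were called higher, although 6 members had an unadjusted p under 0.05 and CYTB had an FDR of 0.0153 at a log2 fold change of 0.37 ± 0.10, higher in 7 of 7 animals. CYTB was the 1 member past the FDR alone, as were 9.56% of all genes in this direction. From 48 to 72 h ND6 alone was called, with a log2 fold change of 0.75 ± 0.24 (FDR = 0.0196, higher in 6 of 7 animals), against 0.786% of all genes. This call was lost without animal 103 (0.66, FDR = 0.0701), without animal 201 (0.70, FDR = 0.0683) and without the animal block (FDR = 0.168). At the FDR alone 5 members were higher from 48 to 72 h, against 16.5% of all genes, among them ND2 (0.34 ± 0.11, FDR = 0.0192) and ND3 (0.33 ± 0.11, FDR = 0.0233). Thus neither step by itself took the heavy-strand genes past the fold threshold.

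Differences between animals ran through all members. Over the 40 combinations of gene and time point, animal 206 was the highest in 20 and animal 107 the lowest in 20. At 48 h animal 206 was the highest for 7 of the 8 genes. The animal-centred log2 CPM of each heavy-strand gene followed the mean of the other heavy-strand genes over the 35 samples, with Pearson's r from 0.86 (ND5) to 0.99 (ND2), and ND6 followed the heavy-strand mean with r = 0.83. These samples share animals and libraries, and the values are given as a description.

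Among genes that are not members, with a mean of at least 1 CPM (12163 genes), the patterns most like the heavy-strand mean belonged to ENSBTAG00000043564 (r = 0.94) and ENSBTAG00000043584 (r = 0.92), then to 2 more genes that also have no symbol here (r = 0.91 and 0.88) and to the mitochondrial tRNA gene ENSBTAG00000043574 (r = 0.85), each over 35 samples. That tRNA gene was also the one most like ND6 (r = 0.82). ND6 was next most like ENSBTAG00000014265 (r = 0.80), the microRNA gene bta-mir-29c (r = 0.79) a second mitochondrial tRNA gene, ENSBTAG00000043572 (r = 0.75), and ENSBTAG00000013468 (r = 0.75).

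Complex I is built from these mitochondrially encoded subunits and many nuclear-encoded ones. Symbols were known only for genes that the study found DE at some time point, so the lists below count only such genes and their counts describe how they came to be named. The copy of that list used here was also shortened, among the genes lower at 72 h, so a gene without a symbol here may still have been DE. Of 37 nuclear complex I subunits listed, 18 were named. At 6 and 24 h 0 of the 18 were called by edgeR, DESeq2 or limma voom, with 4 and 14 at an unadjusted p under 0.05. By edgeR 1 was higher at 48 h, and at 72 h 17 were higher and 1 lower, where 9.8% of all genes were called higher. Their median log2 fold change was 0.11, 0.18, 0.46 and 0.76 in the 4 comparisons, while the median of the 8 mitochondrially encoded mRNAs was below 0 at each time point. The largest values at 72 h were those of NDUFA3, an accessory subunit (58.2 ± 9.16 to 125 ± 27.6 CPM, log2 fold change 1.09 ± 0.08), of NDUFS8, an iron-sulphur subunit (0.91 ± 0.08), and of NDUFB1 (0.91 ± 0.07). NDUFS1, the largest iron-sulphur subunit, was the one that was lower, with 392 ± 46.6 CPM at 0 h and 211 ± 78.2 at 72 h (-0.94 ± 0.12). Of 9 nuclear complex III subunits, 3 were named (UQCRQ, UQCR11 and UQCR10), and all 3 were called higher at 72 h (0.64 to 0.67). None was called by any of these tools before, with 0, 2 and 3 at an unadjusted p under 0.05 in time order. Between 24 and 72 h the median log2 fold change was 0.58 for the 18 nuclear complex I genes and 0.61 for the 8 mRNAs. The 18 have a symbol here mostly because they were DE at 72 h. Their rise is therefore only a description, and it does not extend to the subunits without a symbol. Of these 18 genes, 8 were called higher and 1 lower, where 4.43% of all genes were called higher. The median of the 3 complex III genes was 0.53, with 0 called.

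Complex I assembly factors and the factors that make and process mitochondrial RNA were mixed. Of 17 assembly factors, 5 were named, and at 72 h 2 were higher, with NDUFAF8 at 0.99 ± 0.08 and NDUFAF2 at 0.60 ± 0.08, and 3 lower, NUBPL (-1.13 ± 0.15), which delivers iron-sulphur clusters, NDUFAF7 (-1.06 ± 0.13) and NDUFAF6 (-0.68 ± 0.07). Of 32 transcription and RNA processing factors, 6 were named. At 6 and 24 h 0 of these 6 were called by edgeR, DESeq2 or limma voom, with 2 and 3 at an unadjusted p under 0.05. By edgeR 3 were lower at 48 h, and at 72 h 4 were lower and 2 higher. Of all genes tested, 6.3% were called lower at 48 h, and 15.4% lower and 9.8% higher at 72 h. TFAM, which packages mitochondrial DNA and activates its transcription, went from 14.7 ± 1.45 CPM at 0 h to 5.37 ± 2.55 at 72 h (-1.495 ± 0.18). PDE12, which removes poly(A) tails in mitochondria, was at -1.15 ± 0.11. GRSF1, an RNA-binding protein of the mitochondrial RNA granules that handles light-strand transcripts including ND6, went from 65.8 ± 5.44 to 33.5 ± 6.59 CPM (-0.99 ± 0.10). LRPPRC, which stabilizes heavy-strand mRNAs, went from 112 ± 11.6 to 68.3 ± 13.5 CPM (-0.73 ± 0.08), while its partner SLIRP went from 29.0 ± 1.59 to 54.4 ± 7.31 (0.90 ± 0.07) and MRPL12, a mitochondrial ribosomal protein, from 29.5 ± 3.42 to 47.3 ± 7.04 (0.68 ± 0.07). FASTK and POLRMT had no symbol in the shortened list and are not described.

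Markers of other cells in a muscle core moved at some of the same time points. Muscle fibres could be checked by CKM alone, 1 of 8 listed markers that was named, at 12386 CPM on average at 0 h and 19161 at 72 h. All 6 adipocyte markers were named, and their summed level was 372 ± 101 CPM at 0 h (250 to 515), 361 ± 201 at 6 h (128 to 768), 185 ± 43.3 at 24 h and 145 ± 42.8 at 72 h (93.0 to 198). LPL, which muscle also expresses, made up most of this sum, with 229 ± 38.6 CPM at 0 h and 176 ± 45.6 at 24 h. The other 5 were far lower at 24 h, with ADIPOQ going from 25.4 ± 15.2 to 0.282 ± 0.21 CPM and PLIN1 from 46.6 ± 25.6 to 3.28 ± 0.63. Of the 6 markers, 5 were called lower at 24 h and 6 at 48 h, against 0.95% and 6.3% of all genes. At 6 h 0 of the 6 were called by edgeR, DESeq2 or limma voom, with 1 at an unadjusted p under 0.05. Their fitted log2 fold changes at 6 h ranged from -0.74 ± 0.34 (ADIPOQ) to 0.14 ± 0.43 (FABP4), with wide errors. The summed level of 3 of 4 macrophage markers came to 40.0 ± 16.0, 34.95 ± 11.3 and 12.99 ± 5.89 CPM for the 0, 6 and 72 h samples, and that of 3 of 4 T and NK cell markers 5.58 ± 1.59, 5.58 ± 2.63 and 9.98 ± 1.19 CPM. The erythroid markers HBB and HBA, 2 of 3 listed, summed to 0.0520 to 3.59 CPM at 0 h and reached 72.1 CPM in 1 sample at 48 h. No marker of endothelial cells or fibroblasts was named in the shortened list. The part of other cell types in the levels of the 8 mRNAs was not tested.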

How the data were processed

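The 35 samples were 7 animals at 5 time points, and every column of the table was used. The authors trimmed the reads (Trimmomatic 0.39), mapped them to ARS-UCD1.2 with STAR 2.7.0f and counted them per gene with featureCounts 1.6.4 and the Ensembl release 95 annotation. The deposited values are these raw counts, whole numbers without normalization or filtering. Symbols came from a shortened copy of the study's list of DE genes, whose fold changes and p-values were not used.

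Genes that passed filterByExpr, grouped by time point (14630 genes), were normalized by TMM, and tested with edgeR's quasi-likelihood test (version 4.0.16, R 4.3.3) with animal as a block and all 35 samples in 1 fit. P-values were adjusted by Benjamini-Hochberg over all genes tested, with a call needing both an FDR below 0.05 and a change of more than 1.5 fold. The standard error of a log2 fold change was its absolute value divided by the square root of the F statistic of the test. Log2 CPM used a prior count of 2. The samples of an animal come from the same carcass: their deviations from the time point means correlated with a median r of 0.58 over 70 pairs (0.29 to 0.77), against -0.12 between animals.

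The members and the lists of nuclear partners and cell markers were chosen with earlier results of these data known. Named were all 8 members, from each of the 4 lists of nuclear partners the 3 called genes with the largest change at 72 h in each direction, GRSF1, FASTK, LRPPRC, SLIRP, POLRMT and TFAM whatever their values, and the 5 genes most like the heavy-strand mean and ND6. The 5 mitochondrial tRNA genes in the study's list were named as well. Alternatives were no block, DESeq2 size factors, TMM without the named mitochondrial genes, other filters, DESeq2 (version 1.42.0), limma voom (version 3.58.1), RIN as covariate, the 14 samples of 2 time points, the FDR alone, libraries thinned to the size of the smallest, and omission of each animal in turn. Depth of 20568418 to 104275821 counts leaves ND6 with the largest counting error. Gene lengths, coordinates and sequences were not used here.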

Additional observations from a re-analysis of the deposited data

Results flagged for a closer look

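In 8 of 52 groups of 7 values, 1 animal stood apart from the others by a gap that is large for the range of the group (Dixon's test at 95%). For normally distributed values chance gives about 1 in 20 groups, and the groups share animals and libraries. Levels of the members entered as CPM and not as log2 CPM, so a single high value stands out more than on the log2 scale. Of the 8 values, 6 came from animal 206. It was the highest for ND1 at 24 h (4680 CPM, next 3360) and at 48 h (7470 CPM, next 4180), for ND2 at 72 h (4120 CPM, next 3290), for ND4 at 48 h (11300 CPM, next 7700), for CYTB at 48 h (12200 CPM, next 7660) and for the share of all 8 mRNAs in the library at 48 h (4.06%, next 2.68%). Animal 201 was the lowest for ND2 at 0 h (2550 CPM, next 3700). Animal 202 was the highest for ND6 at 6 h (19.6 CPM, next 8.02). Without animal 202 the difference of ND6 from the heavy-strand median at 6 h was -1.49 rather than -1.31.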

How the results depend on the processing

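Each count of members called was recomputed under 11 alternatives and without each animal. Without the animal block, ND6 lost its call from 48 to 72 h (0 members called), and the block changed the count by less than 1.5 times in each other comparison. At the FDR alone, 8 members were called at 48 h and 4 at 72 h against 0 h, 1 from 24 to 48 h and 5 from 48 to 72 h. With RIN as a covariate 2 were called at 72 h against 0 h and 2 from 24 to 72 h. With the 14 samples of the 2 time points 2 were called at 72 h against 0 h, and ND3 and ND4 lost their call from 24 to 72 h. Leaving out 1 animal gave 1 to 2 at 72 h against 0 h (ND1 was gained without 103, 201 or 206), 0 to 1 from 48 to 72 h, 1 to 7 from 24 to 72 h, 7 to 8 at 6 h, 6 to 8 at 24 h and 3 to 4 at 48 h against 0 h. The causes were not tested.

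Signs of members' log2 fold changes turned at 72 h against 0 h alone, for uncalled values near 0: ND4 without the filter (-0.0056), with RIN (-0.066) and with 14 samples (-0.018), ND3 with RIN (-0.043), and, on leaving out 1 animal, ND3 (-0.11 without 201 to 0.0998 without 107, and -0.0016 without 206), ND4 (-0.11 without 201 to 0.0706 without 107, and -0.021 without 206) and CYTB (-0.17 without 201 to 0.0070 without 107). The difference of ND6 from the heavy-strand median from 24 to 48 h (-0.084) turned to 0.11 without animal 101. Against 0 h it lay between -1.32 and -1.24 at 6 h and between -1.20 and -0.88 at 72 h over 5 alternatives, and between -1.49 and -1.19 at 6 h without 1 animal. ND6 had as few as 101 reads in a library, which limits its precision.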
